A study of Homo sapiens with 6 samples.

Results

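The transcripts described here are those of 10 genes of the Hippo pathway's transcriptional output: the coactivators YAP1 and WWTR1 (TAZ), the DNA-binding factors TEAD1 and TEAD4, the feedback inhibitors LATS2 and AMOTL2, and the target genes CTGF, CYR61, ANKRD1 and AXL. They were listed by name for their place in the pathway, and each gene's counts were summed over all of its rows. Of the 10 genes, 9 had at least 1 row among the 16571 gene symbols of the table, and all 9 passed the filter on low counts that left 10695 genes for testing. AXL, which encodes a receptor tyrosine kinase, had no row and is not analysed here. The symbol TAZ in the table, with 2 rows, is tafazzin, a mitochondrial enzyme, so only WWTR1 was read as the coactivator TAZ.

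On GRCh37 the genes lie at chr11:101981178-102104155 (YAP1, plus strand), chr3:149235022-149454501 (WWTR1, minus), chr11:12695968-12966284 (TEAD1, plus), chr12:3068496-3149842 (TEAD4, plus), chr13:21547175-21635725 (LATS2, minus), chr3:134074189-134094321 (AMOTL2, minus), chr6:132269316-132272512 (CTGF, minus), chr1:86046444-86050272 (CYR61, plus) and chr10:92671853-92680844 (ANKRD1, minus).

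RNA-seq was performed on A2780, a cell line labelled as serous ovarian cancer, in 2 groups of 3 libraries. One group carried the control vector pGIPZ-NC and the other a short hairpin RNA against USP39 (shUSP39), a splicing factor related to deubiquitinases. Cells of both groups were infected with lentivirus, so infection as such is shared by the control. The paper describes stable lines selected with puromycin after infection. Whether the libraries of a group came from 1 infection is not stated. Differences between separately infected and selected lines cannot be told apart from the knockdown. The study placed its hairpins in the pGIPZ vector, and which of its hairpins these libraries carried is not stated. The series describes the libraries of a group as biological replicates of 1 cell line, so p-values measure the spread between cultures of that line.

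YAP and TAZ have no DNA-binding domain of their own and switch genes on by binding TEAD factors in the nucleus. When the Hippo pathway is active, the kinases MST and then LATS phosphorylate YAP and TAZ, which holds them in the cytoplasm or leads to their degradation, so much of their control acts on protein rather than on RNA. CTGF, CYR61 and ANKRD1 are the transcripts most often read as their output, and LATS2 and AMOTL2 are targets that in turn restrain YAP and TAZ.

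Total counts were 28294819 to 32939264 per library. The 3 pGIPZ-NC libraries and shUSP39 replicate 1 had a count for 12662 to 12819 genes, whereas shUSP39 replicates 2 and 3 had one for 15446 and 14890, so results are also given with shUSP39 replicate 1 as the sole knockdown library. In that fit the spread comes from the 3 controls alone and the lone library is assumed to vary as they do. USP39 had no row, and the hairpin's effect on its own target could not be read from these data. Of 8 serous ovarian cancer markers, WT1 had no row, CDH1 had at most 1 count in any library, PAX8 and EPCAM at most 6, and the list's summed level of 21.9 to 25.3 CPM (counts scaled to a common library total) in pGIPZ-NC and 32.8 to 39.7 CPM in shUSP39 came mostly from KRT18. KRT8 went the other way, with 28, 37 and 26 counts in pGIPZ-NC and 3, 0 and 0 in shUSP39, and MUC16 had 5, 1 and 1 counts and 6, 150 and 71 counts, high in shUSP39 replicates 2 and 3. The 5 fibroblast markers summed to 1120 to 1190 CPM in pGIPZ-NC and 458 to 479 CPM in shUSP39, mostly from COL1A2. The 4 leukocyte markers with a row summed to 9.32 to 11.8 CPM and 11.4 to 12.1 CPM, nearly all of it CD68, with PTPRC at 7 counts or fewer in every library. The 4 endothelial markers summed to 0.389 to 0.434 CPM and 0.503 to 2.05 CPM. The part of these shifts in the results that follow was not tested, and in bulk RNA fewer cells of a type and less RNA per cell cannot be told apart.

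In the shUSP39 libraries CYR61, ANKRD1, AMOTL2 and TEAD4 transcripts were higher and CTGF transcripts were lower than in pGIPZ-NC. CYR61 rose 1.78-fold, AMOTL2 1.75-fold, TEAD4 1.45-fold and ANKRD1 1.34-fold, and CTGF fell by 0.41 on the log2 scale. YAP1, WWTR1, TEAD1 and LATS2 did not pass an adjusted p of 0.05 in the quasi-likelihood test of edgeR, adjusted after Benjamini and Hochberg over the 10695 genes. Of all genes tested, 16.1% were higher and 17.5% were lower at that threshold, against 4 and 1 of the 9 genes here. No gene of the 9 reached the 2-fold change at an adjusted p under 0.05 that 6.81% of all genes did, and none did with DESeq2 or limma-voom or at an unadjusted p under 0.05. The median log2 fold change of the 9 genes was 0.18, and that of all genes tested was 0.01. The former is YAP1's own value and rests on its few counts, and leaving out 1 library moved it to between 0.024 (without shUSP39 replicate 1) and 0.44 (without pGIPZ-NC replicate 1), with 0.029 without pGIPZ-NC replicate 3, 0.081 without pGIPZ-NC replicate 2, 0.35 without shUSP39 replicate 2 and 0.42 without shUSP39 replicate 3. The libraries of the 2 groups did not overlap for 4 genes with shUSP39 above and 1 gene with shUSP39 below, which was also so for 24.1% and 20.3% of all genes tested.

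**Figure D1:**
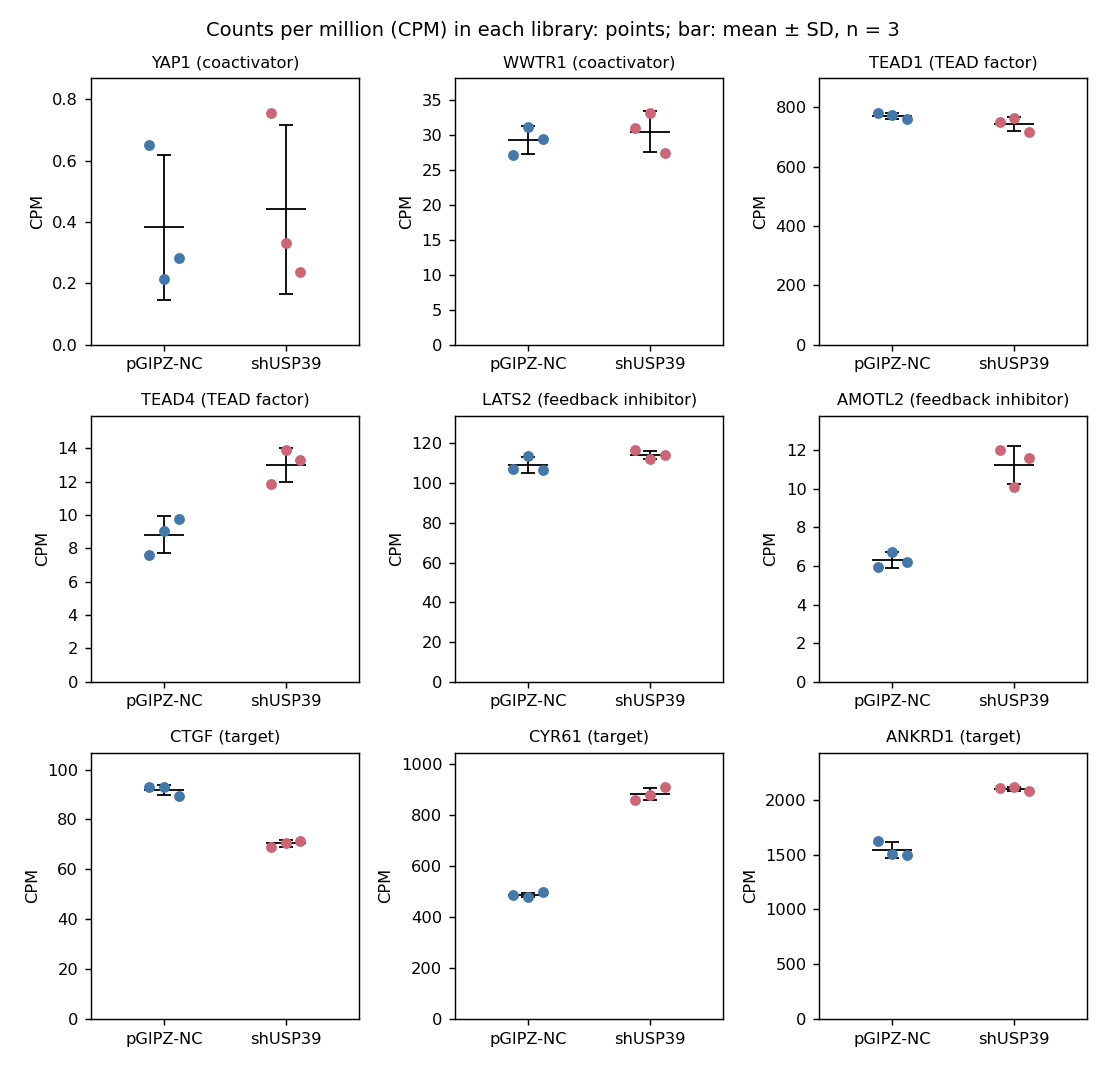
Level of each measured gene in CPM (vertical axis, from 0) in the 3 pGIPZ-NC libraries (blue points) and the 3 shUSP39 libraries (red points), with the mean ± SD (n = 3). The shUSP39 points lie above all pGIPZ-NC points for TEAD4, AMOTL2, CYR61 and ANKRD1 and below them for CTGF, and the points of the other 4 genes overlap.

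Neither coactivator passed the test. WWTR1, which encodes TAZ, had 27.2, 31.1 and 29.5 CPM in pGIPZ-NC replicates 1 to 3 and 31.0, 33.1 and 27.4 CPM in the shUSP39 replicates. The groups overlapped, and the log2 fold change of 0.04 (SE 0.09, n = 3 per group) had a 95% interval of -0.14 to 0.21 (edgeR adjusted p = 0.802). Its transcript NM_015472.4 held 99.783% of its counts. YAP1 was counted 21, 7 and 8 times in pGIPZ-NC and 24, 10 and 7 times in shUSP39, or 0.382 ± 0.236 CPM in controls and 0.441 ± 0.276 CPM in knockdown libraries (SD, n = 3). The groups overlapped widely, and the interval of the YAP1 log2 fold change, -1.12 to 1.49 around 0.18, leaves room for a 2-fold change in either direction (edgeR adjusted p = 0.861). These YAP1 counts came from 1 row, NM_001195045.1, where RefSeq lists 9 coding transcripts of the gene, so they are the level of that row and not of YAP1 as a whole. The table is thin in this way for genes with many transcripts. Among genes with 1 current RefSeq coding transcript 88.7% had a row, and among genes with 4 or more transcripts 15.65% of the transcripts had one.

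TEAD1 was the most abundant factor of its family among the rows of the table and did not pass the threshold. It had 780, 773 and 760 CPM in pGIPZ-NC and 751, 764 and 717 CPM in shUSP39. The lowest control value lay just below the highest knockdown value, and the log2 fold change was -0.08 (SE 0.03, 95% interval -0.14 to -0.01, edgeR adjusted p = 0.0738). With limma-voom TEAD1 did pass (log2 fold change -0.08, adjusted p = 0.0422). TEAD4 had 7.63, 9.05 and 9.79 CPM in pGIPZ-NC and 11.9, 13.9 and 13.3 CPM in shUSP39. All 3 knockdown libraries lay above all controls, and TEAD4 rose by 0.54 on the log2 scale (SE 0.13, 95% interval 0.27 to 0.80, edgeR adjusted p = 0.0017161). With shUSP39 replicate 1 alone against the 3 controls, the log2 fold change was 0.41 and did not pass (edgeR adjusted p = 0.133), in a fit that takes its spread from the controls alone.

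TEAD4 was counted as a pair of transcripts. NM_201443.2 had 150, 217 and 183 counts in pGIPZ-NC and 251, 327 and 279 in shUSP39, and rose by 0.65 on the log2 scale (SE 0.16, edgeR on transcripts, adjusted p = 0.00311). NM_003213.3 had 96, 81 and 94 counts and 127, 93 and 112 counts, and did not pass (log2 fold change 0.29, SE 0.22, edgeR on transcripts, adjusted p = 0.354). The test of the difference between them did not pass either. NM_201443.2 held 66.6% ± 5.94 of TEAD4 counts in controls and 71.9% ± 5.74 in knockdown libraries (SD, n = 3). In edgeR's test of transcript usage the adjusted p was 0.601, with 3.69% of 1628 genes past the threshold. These 2 rows share sequence, and how reads were divided between them is not stated.

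The rows of the 4 TEAD genes were set per kilobase of the longest coding transcript and compared with each other. TEAD4 had rows for 2 of its 3 RefSeq coding transcripts, and TEAD2 had 12 to 35 counts per library. Any counts of transcripts without a row are absent from these shares. TEAD1 made up 71.5% ± 1.58 of their summed level in controls and 68.1% ± 1.19 in knockdown libraries, TEAD3 23.8% ± 0.985 and 25.1% ± 0.777, and TEAD4 4.50% ± 0.519 and 6.56% ± 0.439 (SD, n = 3). TEAD2 was at 0.279% and 0.229%. The knockdown libraries lay above the controls for the TEAD4 share and below them for the TEAD1 share. Among the rows present, TEAD1 remained the main TEAD transcript in every library.

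Of the feedback inhibitors, AMOTL2 passed the test and LATS2 did not. LATS2, the kinase that phosphorylates YAP and TAZ, had 107, 113 and 106 CPM in pGIPZ-NC and 116, 112 and 114 CPM in shUSP39. One knockdown library lay within the control range, and the log2 fold change of 0.04 (SE 0.05) had a 95% interval of -0.06 to 0.15 (edgeR adjusted p = 0.564). AMOTL2, an angiomotin-family protein that binds YAP at cell junctions, had 5.93, 6.74 and 6.22 CPM in pGIPZ-NC and 11.99, 10.1 and 11.6 CPM in shUSP39. The groups were well apart, and AMOTL2 rose by 0.81 on the log2 scale (SE 0.14, 95% interval 0.52 to 1.09, edgeR adjusted p = 4.04e-05). Its transcript NM_016201.3 held 99.1% of the counts. Within each library the ratio of AMOTL2 to LATS2 counts was 0.0552, 0.0594 and 0.0585 in pGIPZ-NC and 0.103, 0.0898 and 0.102 in shUSP39, a 1.70-fold difference in means.

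The secreted matricellular proteins CYR61 (CCN1) and CTGF (CCN2) belong to the same CCN family, and their transcripts went in opposite directions. CYR61 had 487, 479 and 496 CPM in pGIPZ-NC and 861, 877 and 909 CPM in shUSP39. The gap between the groups was many times the spread within them, and CYR61 rose by 0.83 on the log2 scale (SE 0.03, 95% interval 0.76 to 0.90, edgeR adjusted p = 4.55e-17). CTGF had 92.8, 92.8 and 89.5 CPM in pGIPZ-NC and 69.0, 70.5 and 71.5 CPM in shUSP39. Every knockdown library lay below every control, and CTGF fell by 0.41 on the log2 scale (SE 0.05, 95% interval of the log2 fold change -0.52 to -0.30, edgeR adjusted p = 1.14e-06). ANKRD1, a nuclear ankyrin-repeat protein of muscle that is also induced by YAP and TAZ in many other cells, had 1627, 1509 and 1498 CPM in pGIPZ-NC and 2107, 2114 and 2078 CPM in shUSP39. All knockdown libraries lay above the controls, and ANKRD1 rose by 0.42 on the log2 scale (SE 0.03, 95% interval 0.35 to 0.48, edgeR adjusted p = 3.34e-11). With shUSP39 replicate 1 alone, the log2 fold changes were 0.80 for CYR61, -0.43 for CTGF, 0.43 for ANKRD1 and 0.91 for AMOTL2.

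**Figure D2:**
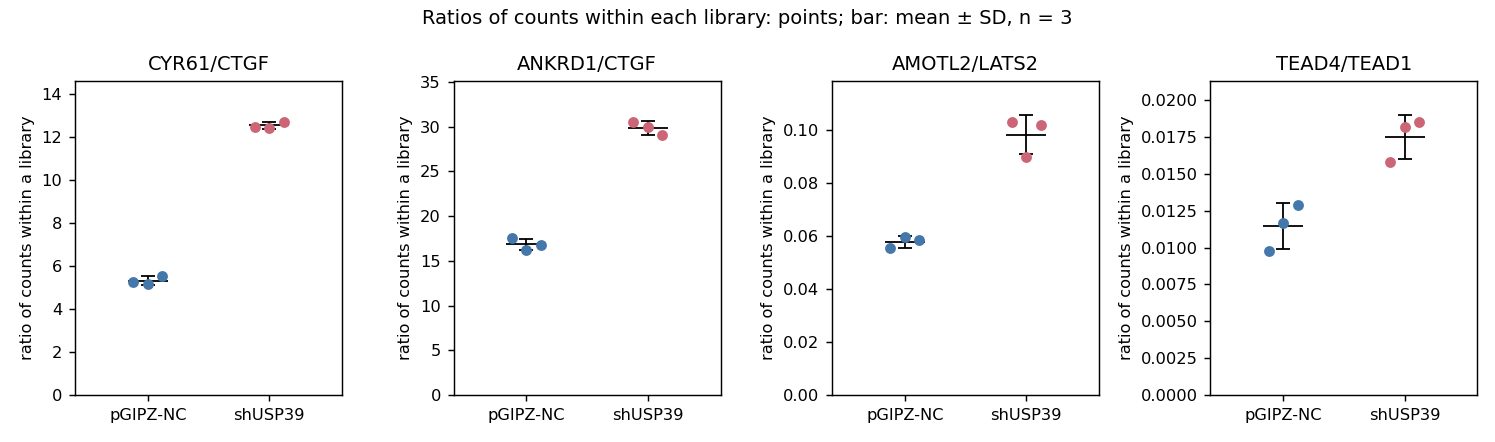
Ratio of the counts of a pair of genes within each library (vertical axis, no unit) for CYR61/CTGF, ANKRD1/CTGF, AMOTL2/LATS2 and TEAD4/TEAD1, with points for libraries and bars for mean ± SD (n = 3). In each panel the 3 shUSP39 points lie above the 3 pGIPZ-NC points.

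Ratios taken within a library do not depend on how libraries are scaled. CYR61 counts were 5.24, 5.16 and 5.55 times those of CTGF in pGIPZ-NC and 12.5, 12.4 and 12.7 times in shUSP39, so the mean ratio was 2.36-fold higher. ANKRD1 to CTGF went from 16.8 ± 0.640 to 29.9 ± 0.7503 (SD, n = 3), 1.77-fold, and CYR61 to ANKRD1 from 0.316 ± 0.0161 to 0.420 ± 0.0150, 1.33-fold. TEAD4 to TEAD1 went from 0.0115 to 0.0175, 1.53-fold. For these ratios and for AMOTL2 to LATS2 the groups did not overlap and the exact two-sided permutation test gave p = 0.1, the smallest it can give with 3 libraries against 3. The ratio of WWTR1 to TEAD1, at 0.0380 ± 0.00282 and 0.0409 ± 0.00258, overlapped between the groups (exact permutation p = 0.3).

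The promoters of CTGF and ANKRD1 are shown. Among the 7 genes here with a RefSeq promoter entry, their searched entries held the most matches to the TEAD core motif. The 7 genes had 10 entries in all, and only the first entry of each gene was searched. Each entry spans 250 bases before and 50 bases after a transcription start, and each was found once in GRCh37, the build that corresponds to hg19. The motif was searched as GGAATG on both strands (CATTCC on the other strand). The stretches below are the 250 bases before the start, 5′ to 3′ on the gene's strand, with matches in capitals. CTGF lies on the minus strand of chromosome 6 and ANKRD1 on the minus strand of chromosome 10.
CTGF, chr6:132272513-132272762: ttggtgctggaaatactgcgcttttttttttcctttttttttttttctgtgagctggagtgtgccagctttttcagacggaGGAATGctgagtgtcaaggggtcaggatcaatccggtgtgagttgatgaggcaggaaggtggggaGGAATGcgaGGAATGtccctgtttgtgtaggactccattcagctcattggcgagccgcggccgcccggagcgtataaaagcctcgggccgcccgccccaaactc
ANKRD1, chr10:92680845-92681094: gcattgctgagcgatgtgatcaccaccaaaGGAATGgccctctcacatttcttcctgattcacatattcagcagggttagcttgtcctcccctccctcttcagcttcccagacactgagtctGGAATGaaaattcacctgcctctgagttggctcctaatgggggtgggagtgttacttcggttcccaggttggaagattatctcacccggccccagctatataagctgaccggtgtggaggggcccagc

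The CTGF promoter held 3 matches, beginning 169, 104 and 95 bases before the start, and the ANKRD1 promoter held 2, beginning 220 and 128 bases before it. AP-1 was searched as the pattern TGANTCA, with any base at N. The ANKRD1 promoter also held 1 match to it, with the letters TGATTCA, 195 bases before the start. YAP1 held 1 TEAD match 162 bases before its start and LATS2 held 1 within the 50 bases after its start. The searched entries of WWTR1, AMOTL2 and AXL held none, and any further entries of these genes were not searched. The starts recorded for WWTR1, AMOTL2 and AXL lie within the annotated gene span, so windows at those starts do not reach the gene's 5′ end. For a gene with more than 1 entry, the window searched may have another start. Among 35116 promoter entries, 14.03% held the TEAD core, 1.37% held it 2 or more times and 7.71% held the pattern TGANTCA. TEAD1, TEAD4 and CYR61 had no entry. CTGF and ANKRD1, which both held repeated matches, changed in opposite directions. A match of letters is a description of these windows and shows no binding.

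**Figure D3:**
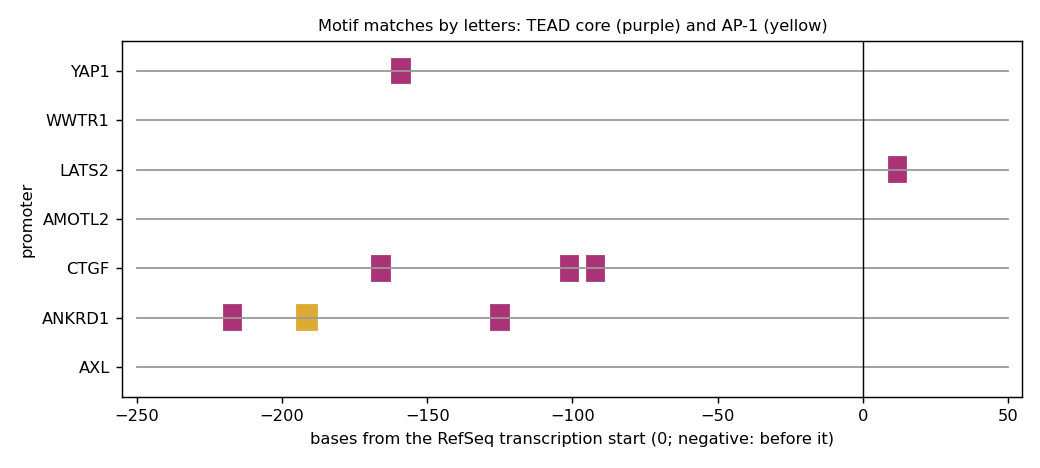
Position of each match to the TEAD core (purple) and the AP-1 pattern TGANTCA (yellow) in bases from the RefSeq transcription start (horizontal axis, start at 0) for the 7 genes with an entry (vertical axis). Only the first entry of each gene was searched. The CTGF line holds 3 TEAD matches, the ANKRD1 line 2 TEAD matches and 1 AP-1 match, and the WWTR1, AMOTL2 and AXL lines none.

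Per kilobase of the longest coding transcript, the levels of these genes spanned several orders of magnitude. They are levels of the rows present, which were 2 of 4 RefSeq coding transcripts for WWTR1 and for AMOTL2 and 2 of 3 for TEAD4. ANKRD1 stood highest at 863 ± 39.8 CPM per kilobase in controls and 1173 ± 10.4 in knockdown libraries (SD, n = 3), placing it between rank 46 and rank 61 of 10590 genes over the 6 libraries. CYR61 followed at 214 ± 3.76 and 387 ± 10.6 CPM per kilobase, then TEAD1 at 81.9 ± 1.08 and 79.0 ± 2.59, CTGF at 39.2 ± 0.833 and 30.1 ± 0.549, and LATS2 at 19.7 ± 0.695 and 20.6 ± 0.379. None of these 5 overlapped its neighbour in either group. WWTR1 was at 5.81 ± 0.396 and 6.06 ± 0.575 CPM per kilobase and TEAD4 at 5.16 ± 0.641 and 7.62 ± 0.5999. WWTR1 and TEAD4 overlapped in pGIPZ-NC, and in shUSP39 all 3 TEAD4 values lay above all WWTR1 values. AMOTL2 was at 1.29 ± 0.0847 and 2.31 ± 0.206 CPM per kilobase, and the 1 YAP1 row at 0.0708 ± 0.0437 and 0.0817 ± 0.0510.

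**Figure D4:**
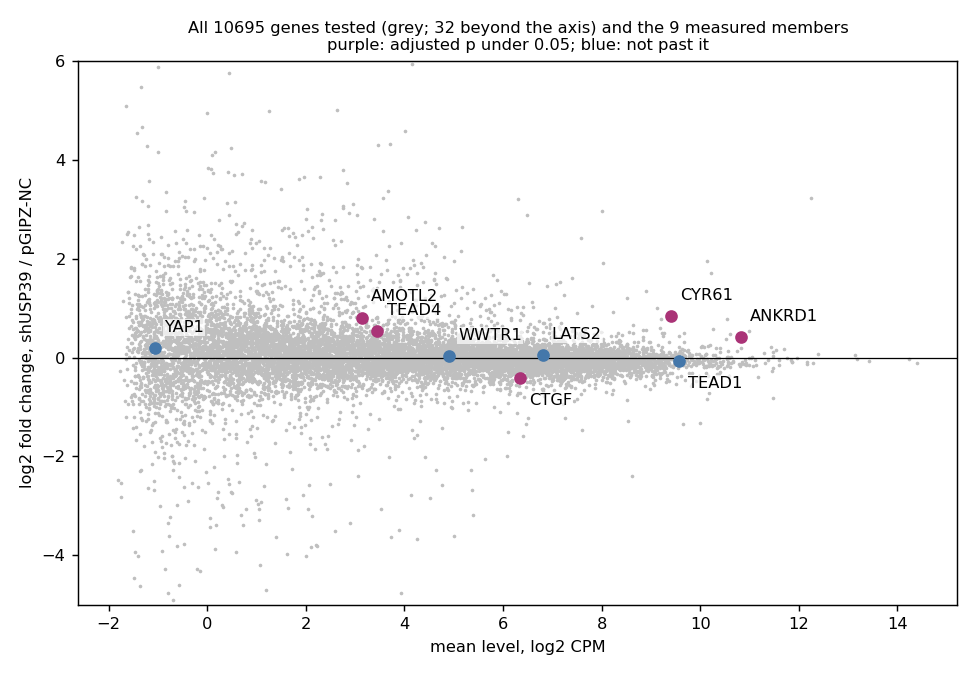
Log2 fold change in shUSP39 over pGIPZ-NC (vertical axis) against mean level in log2 CPM (horizontal axis) for the 10695 genes tested (grey, with 32 genes beyond the axis) and the 9 measured genes, in purple where the adjusted p was under 0.05 and blue otherwise. AMOTL2 and CYR61 lie highest of the 9, at 0.81 and 0.83, CTGF lowest at -0.41, and WWTR1, LATS2 and TEAD1 within 0.08 of 0.

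Of 16 further YAP/TAZ target genes listed, 12 were tested, 5 were higher and 3 lower in shUSP39, where 16.1% of all genes tested were higher and 17.5% lower, and their median log2 fold change was 0.14. NUAK2, a kinase related to AMPK, rose from 6.37 ± 0.804 to 14.1 ± 2.59 CPM (SD, n = 3; log2 fold change 1.11, SE 0.15, edgeR adjusted p = 9.47e-07). GADD45A, a stress-induced growth arrest gene, rose from 5.83 ± 0.679 to 12.1 ± 0.609 CPM (log2 fold change 1.02, SE 0.14, edgeR adjusted p = 1.44e-06). F3, tissue factor, was counted 23, 20 and 13 times in pGIPZ-NC and 51, 40 and 40 times in shUSP39 (log2 fold change 1.23, SE 0.40, edgeR adjusted p = 0.0189). The F3 call was lost without pGIPZ-NC replicate 3 (adjusted p = 0.0604, edgeR) and without shUSP39 replicate 1 (adjusted p = 0.0733, edgeR), and also with shUSP39 replicate 1 alone (adjusted p = 0.0953, edgeR). NT5E, the ecto-nucleotidase CD73, went the other way, from 139, 123 and 78 counts to 16, 15 and 13, a log2 fold change of -2.92 (SE 0.31, edgeR adjusted p = 3.03e-08). The other targets past the threshold were FJX1 and PTPN14, which were higher, and CRIM1 and MYOF, which were lower, each by less than 2-fold. As among CYR61, ANKRD1 and CTGF, the listed targets therefore moved in both directions. CCDC80, with a log2 fold change of 1.13, did not pass (edgeR adjusted p = 0.0706) but did without pGIPZ-NC replicate 1 (edgeR adjusted p = 0.0287).

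**Figure D5:**
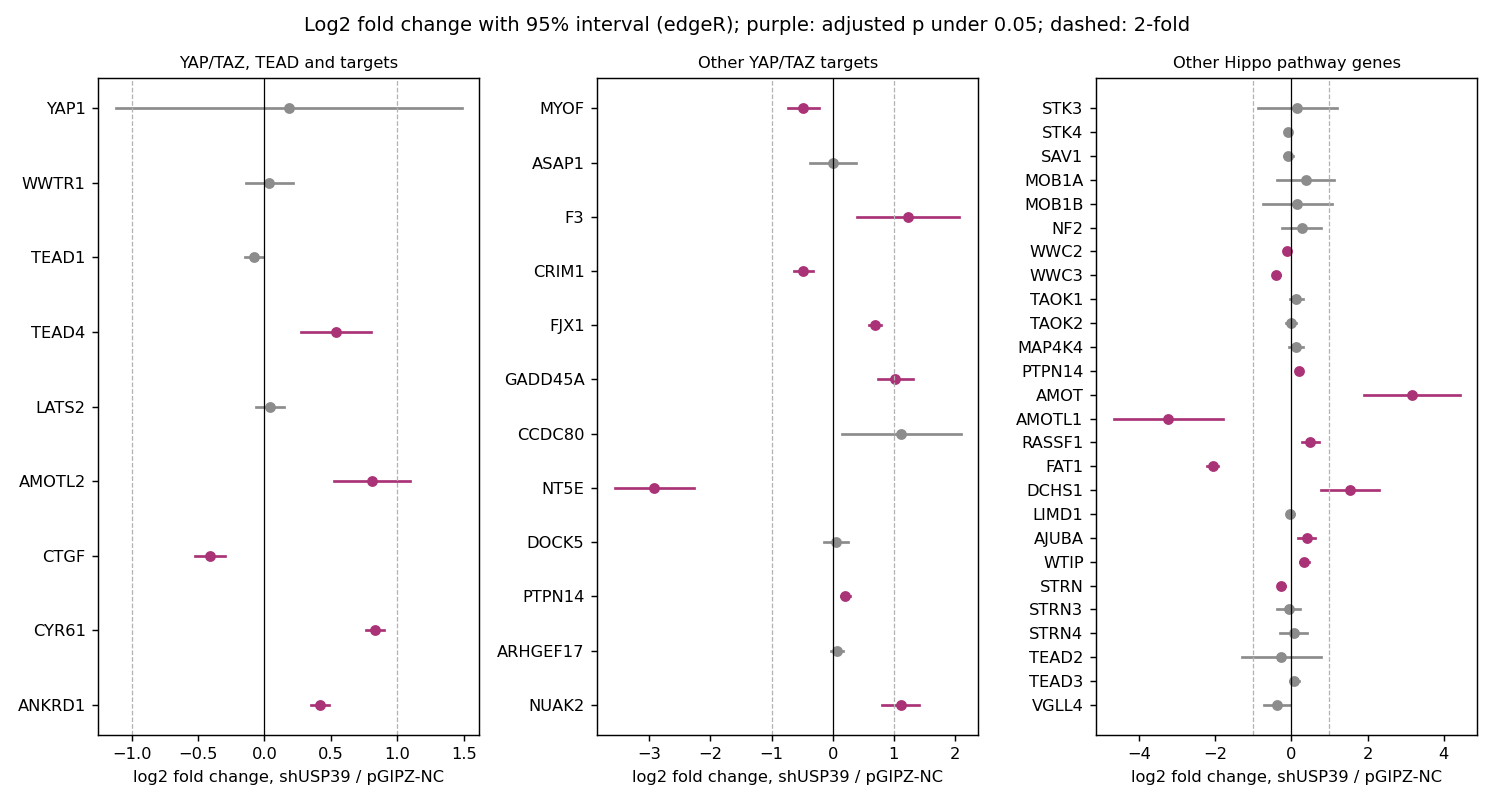
Log2 fold change in shUSP39 over pGIPZ-NC (horizontal axis, points) with its 95% interval (lines) for the 9 measured genes, the other YAP/TAZ targets tested and the other Hippo pathway genes tested (vertical axis). Purple marks an adjusted p under 0.05 and dashed lines mark 2-fold. The widest interval among the 9 genes is that of YAP1, and AMOT, AMOTL1, FAT1 and DCHS1 lie beyond 2-fold in the third panel.

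Upstream of the coactivators, no tested member of the kinase core passed the threshold (STK3, STK4, SAV1, MOB1A and MOB1B). Their log2 fold changes were -0.08 to 0.37, and LATS1 had too few counts to be tested. STK3, MOB1A and MOB1B had few counts, at 14 to 23, 28 to 62 and 12 to 65 per library. The intervals of their log2 fold changes, -0.87 to 1.19, -0.37 to 1.11 and -0.76 to 1.08, leave room for a 2-fold rise. Those of STK4 (-0.16 to -0.004) and SAV1 (-0.19 to 0.03) were narrow. Of the 3 genes tested among TEAD2, TEAD3 and the VGLL cofactors, none passed, and VGLL4 was the nearest at -0.37 (edgeR adjusted p = 0.0915). TEAD2 had 12 to 35 counts per library, and its interval of -1.30 to 0.77 leaves room for a 2-fold fall. At an unadjusted p, STK4 and VGLL4 were under 0.05, and no gene of these groups passed with DESeq2 or limma-voom. With same-numbered libraries as blocks, STK4 passed (log2 fold change -0.083, adjusted p = 0.0499, edgeR). Of the regulators further upstream, 6 were higher and 5 lower of 18 tested, beside the 16.1% and 17.5% of all genes. PTPN14 is on this list and on that of the further targets, so it is counted among the higher genes of both. The angiomotins, the family of AMOTL2, split: AMOT went from 5, 1 and 6 counts to 39, 51 and 22 (log2 fold change 3.17, SE 0.61, edgeR adjusted p = 0.000162), and AMOTL1 went from 49, 17 and 22 counts to 2, 6 and 1 (log2 fold change -3.23, SE 0.70, edgeR adjusted p = 0.000611). Both rest on few counts.

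The giant protocadherin FAT1 went from 79.2 ± 1.33 to 19.3 ± 0.718 CPM (SD, n = 3), a log2 fold change of -2.06 (SE 0.07, edgeR adjusted p = 1.46e-18). DCHS1, a protocadherin that pairs with FAT4, rose from 15, 20 and 28 counts to 57, 77 and 50 (log2 fold change 1.53, SE 0.37, edgeR adjusted p = 0.00193), and with shUSP39 replicate 1 alone this call was lost (edgeR adjusted p = 0.0875). Below 2-fold, WTIP, RASSF1, PTPN14 and AJUBA were higher and WWC3, STRN and WWC2 lower. AJUBA no longer passed when the most abundant transcript stood for each gene (log2 fold change 0.30, edgeR adjusted p = 0.0502). The WWC2 call, at a log2 fold change of -0.11 (edgeR adjusted p = 0.0286) with overlapping groups, was lost without pGIPZ-NC replicate 3 (adjusted p = 0.111, edgeR), without shUSP39 replicate 2 (adjusted p = 0.0993, edgeR) and without shUSP39 replicate 3 (adjusted p = 0.184, edgeR). It was also lost with upper-quartile scaling (adjusted p = 0.223, edgeR), with library size as the sole scaling (adjusted p = 0.1004, edgeR) and with shUSP39 replicate 1 alone (adjusted p = 0.765, edgeR). With shUSP39 replicate 1 alone, 7 of the 12 further targets and 9 of 27 Hippo pathway genes tested passed the threshold, against 8 of 12 and 11 of 26 with all libraries. Over all genes, 2244 of 11374 passed in the former fit and 3598 of 10695 in the latter.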

How the data were processed

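The authors deposited raw read counts for each RefSeq mRNA, with a column for every library, and these were used as deposited. The submitters' processing notes name HISAT2, Cufflinks and hg19 without saying which made these counts; the counter and annotation release are not given in the sources used here. Group mean, fold, p-value and q-value columns of the authors were not used. Groups came from the sample labels. Transcript rows were summed per symbol (46 symbols turned into dates by a spreadsheet were restored, 1 was left), and genes were fitted with edgeR 4.0.16 (R 4.3.3; filterByExpr, TMM factors of 0.9864 to 1.013, robust quasi-likelihood test, Benjamini-Hochberg over all genes). CPM are counts scaled to a common library total. Levels per kilobase used the longest coding transcript of the GRCh37 annotation (16309 symbols matched). Promoters are from RefSeq. The fit was tested on simulated data with 3-fold changes, called at an adjusted p under 0.05 and 2-fold. It recovered 88% of 200 changed genes among 10543, with 2 false calls. Changes under 2-fold, such as those of the genes measured here, were not covered. On other simulated data the test of transcript usage recovered 100% of 100 changed genes among 993, with 7 false calls. Alternatives used DESeq2 1.42.0 and limma 3.58.1. The 10 genes and all lists were chosen with earlier results of these data known. Genes named were the 10, and from each list those past 2-fold and, of the rest past the threshold, the 3 with the lowest adjusted p in each direction. AJUBA, CCDC80, STK4, VGLL4 and the marker genes were named after their values were seen.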

Additional observations from a re-analysis of the deposited data

How the results depend on the processing

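The directions and calls of AMOTL2, CTGF, CYR61 and ANKRD1 held in all 16 alternatives, with log2 fold changes of 0.75 to 0.91, -0.44 to -0.36, 0.80 to 0.88 and 0.39 to 0.46. TEAD4 passed in 15 of 16, failing with shUSP39 replicate 1 alone, an alternative chosen after seeing the data whose spread comes from the controls alone (0.41, adjusted p = 0.133, edgeR). TEAD1 passed with limma-voom (-0.077, adjusted p = 0.0422) and with the replicate block (-0.077, adjusted p = 0.0161). The sign of YAP1, which never passed, turned without pGIPZ-NC replicate 2 (-0.11) and without shUSP39 replicate 1 (-0.46; range over left-out libraries -0.46 to 0.81), and that of WWTR1 without pGIPZ-NC replicate 1 (-0.017) and without shUSP39 replicate 2 (-0.026; range -0.026 to 0.10). Genes past 2-fold numbered 728, and 471 when at least 10 counts were required in every library, which drops genes that are low in 1 group; leaving out 1 library gave 677 to 836. With upper-quartile scaling 58% of genes past the threshold were higher, against 48%. Libraries across the groups correlated at 0.9676 to 0.9693 in log2 CPM. After each group's mean was subtracted for every gene, same-numbered libraries correlated at 0.00477 to 0.0688, under 0.1. Other pairs correlated at -0.0517 to 0.0302. The libraries numbered 1 gave the highest value, yet not every library correlated best with its own number. These values cannot decide whether equal numbers mark libraries made together. With the replicate block, 6 of the 9 genes, 12 Hippo pathway genes and 745 genes past 2-fold were called, against 5, 11 and 728. The added Hippo gene was STK4. Over all genes, 3981 of 10695 passed an adjusted p of 0.05 with the block, against 3598. The 1 YAP1 row of 7 to 24 counts limits what can be said of that gene.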
